A study of Mus musculus with 6 samples.

Results

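The brakes of the cell cycle, that is the CDK inhibitors and the retinoblastoma (pocket) proteins, were followed in cultured mouse muscle stem cells (MuSCs). The genes were taken by symbol: Cdkn1a, Cdkn1b and Cdkn1c (the CIP/KIP inhibitors), Cdkn2a, Cdkn2b, Cdkn2c and Cdkn2d (the INK4 inhibitors), and Rb1, Rbl1 and Rbl2 (the pocket proteins). All 10 were among the 18943 genes of the table and all 10 passed the filter on low values, which 13921 genes passed. MuSCs are the PAX7-expressing precursors of skeletal muscle. They were purified by FACS from WT C57BL/6 mice 8 weeks old and kept in culture for 5 days in the presence of DMSO (the solvent control), of ET-3 (endothelin-3, a peptide ligand of the endothelin receptors) or of NT (neurotensin, the peptide ligand of the neurotensin receptors), and RNA was sequenced in 2 libraries per group. The labels give 100 nM for both ligands, while the study's methods give higher doses. The series' design text speaks of sequencing in triplicate, and a legend of the paper calls each RNA-seq point a mean over biological samples. With 2 libraries per group analysed here, how each library relates to those samples is not given, so p-values measure only the spread between these libraries.

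CDK inhibitors bind cyclin-dependent kinases. INK4 proteins block CDK4 and CDK6, the partners of the D cyclins, and CIP/KIP proteins bind a wider range of cyclin-CDK complexes. The kinases act on the pocket proteins, which in their unphosphorylated form hold back E2F transcription factors: pRB (Rb1) mainly meets the activating E2Fs, whereas p107 (Rbl1) and p130 (Rbl2) join E2F4 and E2F5 and, with the MuvB proteins, the DREAM complex of resting cells. In muscle, p21 (Cdkn1a), p57 (Cdkn1c) and pRB are known for the permanent exit from the cell cycle when myoblasts differentiate, and p27 (Cdkn1b) and p130 are associated with reversible quiescence.

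Promoter sequences show which of these genes carry, close to their starts, letters that E2F factors and p53 are known to read. RefSeq windows of 300 bases (250 before to 50 after a start, GRCm38.p6) matched 8 of the 10 genes, with 11 windows, and both strands were searched. Rb1 and Cdkn1c had no window, so their promoters were not searched. The E2F words were TTTCGCGC, TTTGGCGC and TTTCCCGC, and 1.85% of all 32851 windows held at least 1 of them. The p53 response element was searched as a pair of adjacent half-sites with at most 1 mismatch in 20 bases, and 0.088% of windows held it. E-boxes, the words bound by MYOD and other bHLH factors, were CAGCTG (16.3% of windows) and CAGGTG (20.2%), and the CHR word of the DREAM complex was TTTGAA (17.9%). None of these words overlapped another in the windows shown. The windows that held an E2F or p53 match, and the other start of Cdkn1a, are printed 5′ to 3′ with matches in capitals:
Rbl1, chr2:157204485-157204784, minus strand: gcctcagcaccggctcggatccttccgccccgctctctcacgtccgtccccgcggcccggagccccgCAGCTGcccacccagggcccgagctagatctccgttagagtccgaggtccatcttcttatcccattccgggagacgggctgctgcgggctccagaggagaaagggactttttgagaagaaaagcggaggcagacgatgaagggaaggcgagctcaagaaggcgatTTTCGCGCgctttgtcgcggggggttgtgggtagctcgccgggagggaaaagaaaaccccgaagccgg
Cdkn1a upstream start, chr17:29090729-29091028, plus strand: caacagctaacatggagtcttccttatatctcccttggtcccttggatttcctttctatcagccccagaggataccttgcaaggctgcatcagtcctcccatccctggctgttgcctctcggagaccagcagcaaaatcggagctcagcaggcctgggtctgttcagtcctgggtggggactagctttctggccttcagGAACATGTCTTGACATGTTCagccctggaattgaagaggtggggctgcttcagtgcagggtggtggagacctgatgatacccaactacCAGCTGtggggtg
Cdkn1a downstream start, chr17:29093519-29093818, plus strand: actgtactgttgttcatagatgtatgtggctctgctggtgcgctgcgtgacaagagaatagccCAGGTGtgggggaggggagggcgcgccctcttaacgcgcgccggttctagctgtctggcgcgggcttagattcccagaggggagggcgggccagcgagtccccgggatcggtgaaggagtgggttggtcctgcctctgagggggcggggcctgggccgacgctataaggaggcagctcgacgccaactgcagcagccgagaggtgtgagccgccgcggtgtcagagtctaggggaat
Cdkn2a upstream start, chr4:89294570-89294869, minus strand: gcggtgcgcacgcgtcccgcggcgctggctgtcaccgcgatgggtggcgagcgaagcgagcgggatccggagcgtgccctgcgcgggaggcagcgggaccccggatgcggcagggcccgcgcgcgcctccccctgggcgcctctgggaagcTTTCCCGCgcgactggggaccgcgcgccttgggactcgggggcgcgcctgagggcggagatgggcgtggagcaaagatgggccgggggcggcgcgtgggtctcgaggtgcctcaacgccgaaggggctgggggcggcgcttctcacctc
In these windows the E2F word lay at -18 to -11 from the start of Rbl1 and at -99 to -92 from the upstream start of Cdkn2a, which is the start of the p19ARF transcript. The p53 element lay at -51 to -32 from the upstream start of Cdkn1a. Outside the windows shown, the search found only a CHR word in each of the windows of Cdkn2b and Rbl2. A match is a description of letters and not a measured binding site.

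Most of the brakes were lower with either ligand, and Rbl1 was the exception. Under ET-3, 7 of the 10 genes fell and 1 rose at an adjusted p of at most 0.05, and under NT 6 fell and 1 rose. Changes were widespread in these libraries: 63.7% of all tested genes passed the same rule under ET-3 (33.2% lower and 30.6% higher) and 62.2% under NT (32.5% lower and 29.7% higher). Requiring also a 2-fold change left Cdkn1c and Rb1 under ET-3, where 14.9% of all genes passed in the lower direction, and Cdkn1a, Cdkn1c and Rb1 under NT, where 13.2% did. The median log2 fold change of the 10 genes was -0.37 under ET-3 and -0.29 under NT, beside -0.01 and -0.014 over all tested genes. Both comparisons share the DMSO libraries, and the values of each are therefore given side by side and not counted as separate support. All tests of this kind were limma fits across the tested genes with Benjamini-Hochberg adjustment, on the log2(value + 1) scale, where value is the deposited scaled read count.

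**Figure D1:**
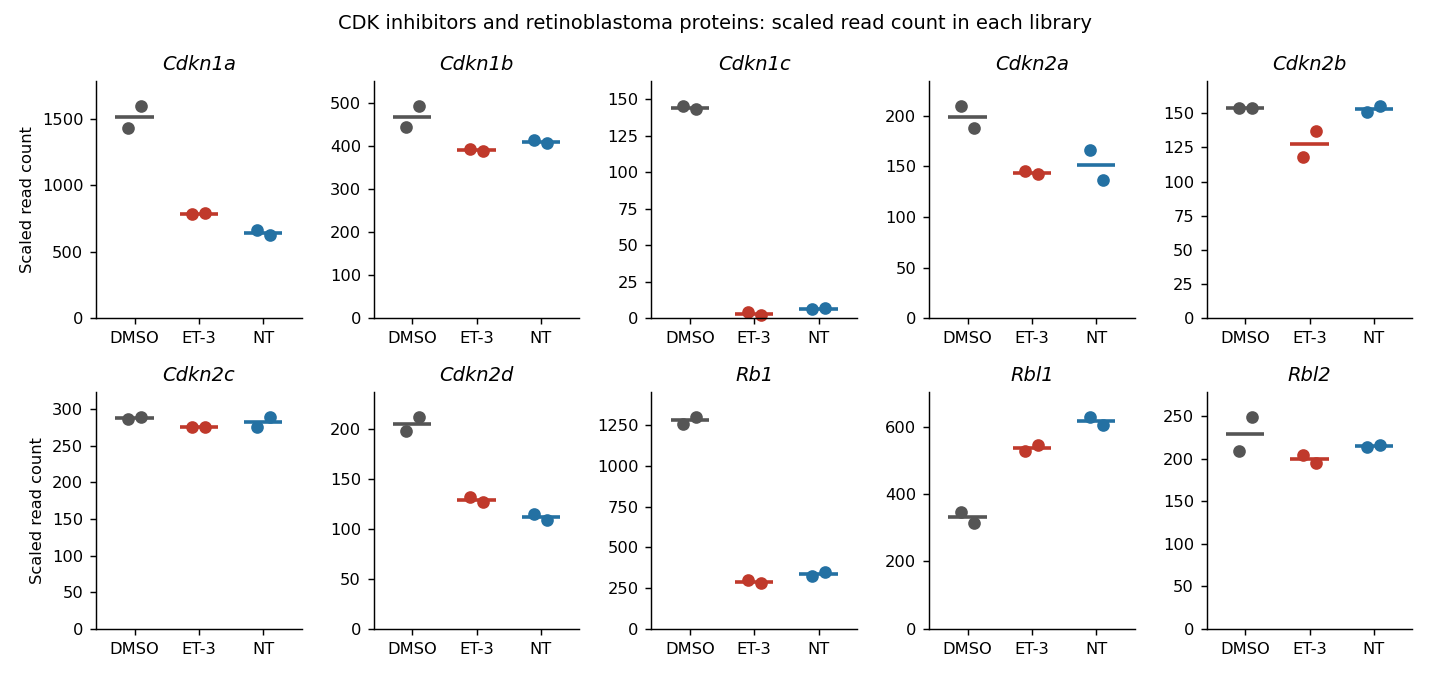
Scaled read count (vertical axes, from 0) of each of the 10 genes in the 6 libraries, 1 point per library and a bar at the mean of each group. The points of Cdkn1a, Cdkn1b, Cdkn1c, Cdkn2a, Cdkn2d and Rb1 were higher in both DMSO libraries than in all 4 treated libraries, those of Rbl1 were lower, and those of Cdkn2b, Cdkn2c and Rbl2 did not separate all 4 from DMSO. The share of all genes that separate in this way was not counted, and 63.7% of tested genes passed against DMSO under ET-3 and 62.2% under NT.

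The libraries themselves set limits that touch every gene. Values summed to 4214458 to 4600575 per library, and the reads behind them, recovered from the scale factor of each library, to 3629134 to 5396233. The libraries within the ET-3 pair and within the NT pair differed by about the counting noise (mean chi-square per gene 0.902 and 0.964, beside 1.45 for DMSO), so each treated pair may be close to a technical repeat, and counting each pair as 1 sample is given below as an alternative. Under that alternative 28.7% of all genes passed under ET-3 and 24.8% under NT, and the same 5 of the 10 genes passed in both: Cdkn1a, Cdkn1c, Cdkn2d, Rb1 and Rbl1, with adjusted p between 0.0221 and 0.0488. Each treated group then holds 1 value with no spread of its own, so these p-values rest on the difference between the 2 DMSO libraries, moderated across genes, and assume that the treated value varies like them.

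Markers of muscle differentiation moved with the DMSO group. The summed value of 12 differentiation genes was 16405 to 18141 in controls, 1915 to 1996 under ET-3 and 1452 to 1663 under NT. Of these genes 11 fell under ET-3 and 12 under NT, among them Ckm (muscle creatine kinase), Actc1 (cardiac actin, also made in young myotubes) and Myh3 (embryonic myosin). Among all tested genes, 33.2% fell under ET-3 and 32.5% under NT. Myog, the factor that starts terminal differentiation, had values of 1157 and 1335 in controls, 31 and 38 under ET-3, and 31 and 28 under NT. Myod1, the myogenic determination factor, differed far less, with 1324 and 1444, 1539 and 1449, and 1192 and 1100. Pax7, which marks the stem cells, was 857 and 1070 in controls, 1754 and 1730 under ET-3, and 1653 and 1599 under NT, while Calcr, a marker of quiescent MuSCs, had values of 0 to 3 in all libraries. In bulk RNA, fewer cells of a type and less RNA per cell cannot be told apart, and the part of these differences in the results below was not tested.

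Markers of other cells were checked in the same way. Endothelial markers (4 of 6 listed) summed to 12 to 24 in controls and 85 to 107 with a ligand, with Tie1 and Emcn not listed. Tek made up most of that rise (2 and 1 in controls, 42 to 70 with a ligand), while Cdh5 had values of 0 to 5 in all libraries. Fibroadipogenic markers (4 of 6) summed to 136 to 147 in controls and 64 to 90 with a ligand, and leukocyte markers (2 of 6, without Ptprc, the CD45 gene) to 21 to 27 and 21 to 45. The fibroadipogenic fall was mostly that of Col15a1 (80 and 82 in controls, 0 to 1 with a ligand), and Dcn also fell (9 and 17, and 0 to 2). Ly6a went the other way (27 and 18, and 37 to 52), and Pdgfra had 20 and 30 in controls and 26 to 44 with a ligand. Mural and Schwann markers (5 of 6) summed to 1013 to 1024 in controls and 20 to 43 with a ligand. Abcc9, a subunit of potassium channels in mural cells and in muscle, made up most of that sum, with 851 and 835 in controls, while the mural marker Kcnj8 had values of 0 to 2. The part of these lists in the results was not tested.

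Among the CIP/KIP inhibitors, Cdkn1c showed the deepest fall of all 10 genes. It encodes p57 and lies on chromosome 7 (143458339 to 143461050, minus strand, mm10). Its values were 145 and 143 in controls, 4 and 2 under ET-3, and 6 and 7 under NT. Both controls stood far above the 4 treated libraries, which held 5 reads in the ET-3 pair and 16 in the NT pair against 272 in controls. In reads per depth, DMSO exceeded ET-3 50.5-fold (95% counting interval 21.4 to 157) and NT 22.0-fold (13.3 to 39.1), intervals that cover counting error only. ET-3 changed it by -5.23 ± 0.33 (SE) on the log2 scale (adjusted p = 4.91e-07) and NT by -4.28 ± 0.33 (adjusted p = 2.12e-06). These changes include the 1 added to each value (the pseudocount), which the ratios of reads do not. With a pseudocount of 5 the changes came to -4.23 and -3.70, and with 0.5 to -5.43 and -4.37. Counted from the lowest fold change of all tested genes, Cdkn1c took rank 193 under ET-3 and rank 319 under NT. The difference between the ligands, 0.95 on the log2 scale, did not pass (adjusted p = 0.15). Exons of Cdkn1c overlap those of the gene model Gm44732 on the other strand over 625 bp of 2039 bp, and Gm44732 had values of 10 and 10 in controls and of 0 to 1 in treated libraries.

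Cdkn1a, which encodes p21, the inhibitor induced by p53 and by MYOD, was the most abundant of the 10 genes per length in every library. It lies on chromosome 17 (29090976 to 29100727, plus strand), and 273 bp of its 3553 bp of exon overlap an unnamed gene model on the other strand. Its values were 1431 and 1594 in controls, 783 and 791 under ET-3, and 664 and 626 under NT. The 3 groups did not overlap, and the order was DMSO, ET-3, NT. Against DMSO, ET-3 gave a log2 fold change of -0.94 ± 0.058 (SE) (adjusted p = 4.09e-07) and NT gave -1.23 ± 0.058 (adjusted p = 7.13e-08). Cdkn1a was also the only 1 of the 10 to differ between the ligands, where 2.69% of all genes passed (2.05% lower under NT): NT minus ET-3 was -0.29 ± 0.058 on the log2 scale (adjusted p = 0.042). At an unadjusted p under 0.05, 5 of the 10 genes and 19.9% of all genes differed between the ligands. The Cdkn1a call was lost when any 1 library was left out (log2 fold change -0.33 to -0.24), when each treated pair was counted as 1 sample (adjusted p = 0.712), without the filter on low values, with a pseudocount of 0.5, with the ligand pair fitted alone and with a replicate block.

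Cdkn1b, which encodes p27, moved little. It lies on chromosome 6 (134920401 to 134925513, plus strand). Its values were 445 and 493 in controls, 394 and 390 under ET-3, and 414 and 408 under NT. Both controls were above the 4 treated libraries. For ET-3 the log2 fold change came to -0.26 (95% interval -0.39 to -0.12, adjusted p = 0.00417) and for NT to -0.19 (-0.32 to -0.052, adjusted p = 0.0215). Both calls were lost with treated pairs counted as 1 sample (adjusted p = 0.168 and 0.252), and the NT call was also lost without the second DMSO library (adjusted p = 0.0813), without the first or the second NT library (0.0881 and 0.119), with upper-quartile scaling (0.0505) and with libraries scaled to their totals (0.292). Scaling to library totals moves the median of all genes under NT from -0.014 to 0.099.

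These unequal changes altered the makeup of the family within each library, where the scaling between libraries plays no part. Per kilobase of exon, Cdkn1a held 70.5% and 71.5% of the CIP/KIP level in controls, 71.3% and 72.0% under ET-3, and 66.6% and 65.4% under NT. The share of Cdkn1b was 17.1% and 17.3% in controls, 28.02% and 27.7% under ET-3, and 32.4% and 33.3% under NT, and that of Cdkn1c was 12.4% and 11.2%, 0.636% and 0.317%, and 1.05% and 1.28%. Thus p27 transcripts made up a larger share with either ligand while their own level was not higher.

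**Figure D2:**
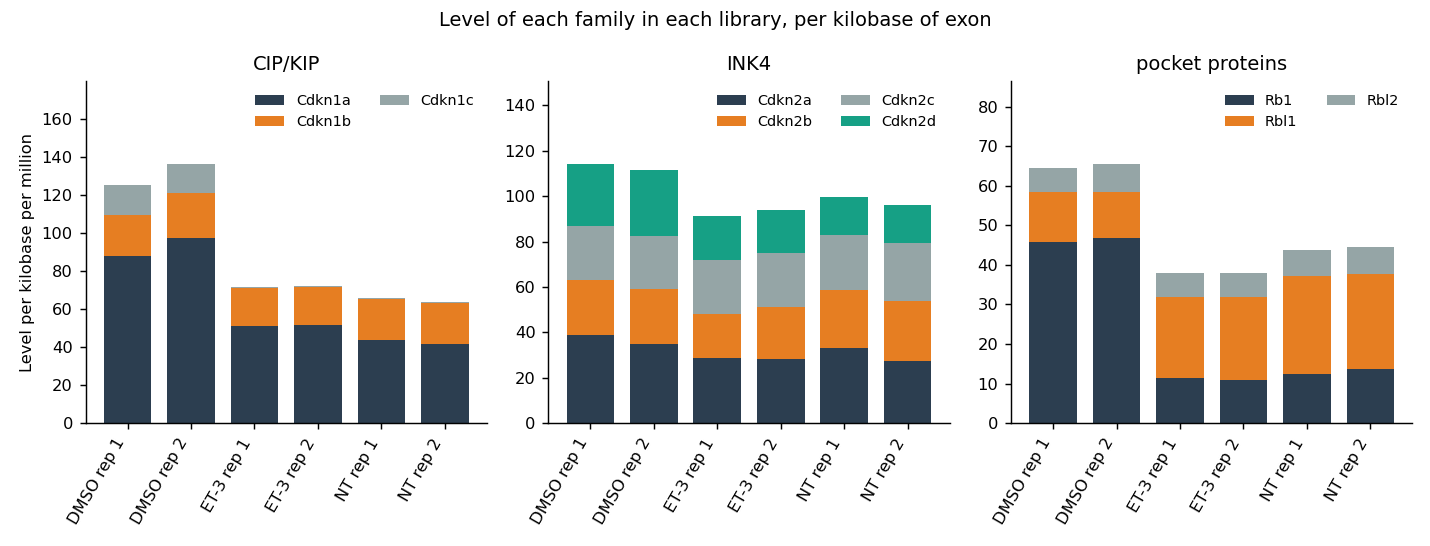
Level of each family in each library, in CPM per kilobase of exon (vertical axes, from 0), stacked by gene, with 1 bar per library. The Cdkn1c segment is nearly absent from the 4 treated bars, and among the pocket proteins the Rb1 segment shrinks from 45.8 and 46.9 in controls to between 10.8 and 13.7, while the Rbl1 segment grows.

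The INK4 inhibitors did not move as a block. Cdkn2d, which encodes p19INK4D, fell most clearly. It lies on chromosome 9 (21288410 to 21291407, minus strand). Its values were 198 and 212 in controls, 132 and 127 under ET-3, and 115 and 109 under NT, so that the 3 groups did not overlap. On the log2 scale, ET-3 differed from DMSO by -0.66 ± 0.096 (SE) (adjusted p = 0.000179) and NT by -0.87 ± 0.096 (adjusted p = 2.73e-05), and the difference between the ligands did not pass (-0.21, adjusted p = 0.265).

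Cdkn2a encodes 2 proteins, the INK4 inhibitor p16INK4A and, from another first exon, p19ARF, which stabilises p53 by binding MDM2, and the gene-level value does not separate them. The gene lies on chromosome 4 (89274471 to 89294653, minus strand). Its values were 209 and 188 in controls, 145 and 142 under ET-3, and 166 and 136 under NT. Both controls were above the treated libraries, and the NT libraries lay on either side of the ET-3 libraries. It differed from controls by -0.46 under ET-3 (95% interval -0.71 to -0.21, adjusted p = 0.00445) and by -0.40 under NT (-0.65 to -0.15, adjusted p = 0.0106). Neither call held with treated pairs counted as 1 sample (adjusted p = 0.0896 and 0.115) or without the first DMSO library (0.0796 and 0.123), and the NT call was also lost without the second DMSO library (0.0512) or the second NT library (0.112).

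Among the INK4 inhibitors, Cdkn2b and Cdkn2c showed the smallest differences. Cdkn2b encodes p15INK4B, known as a target of TGF-β signaling, and neighbours Cdkn2a (chromosome 4, 89306299 to 89311039, minus strand). Its values were 154 and 154 in controls, 118 and 137 under ET-3, and 151 and 155 under NT. It passed under ET-3 (-0.27, adjusted p = 0.039), a call that was lost with library-total scaling (adjusted p = 0.146), with upper-quartile scaling (0.0782), with the 2 groups fitted alone (0.0716), with treated pairs counted as 1 sample (0.093) and without any 1 library other than the second ET-3 library (adjusted p = 0.0714 to 0.188). Under NT it did not pass (-0.0095, 95% interval -0.24 to 0.22), and its sign turned with library-total and upper-quartile scaling. Cdkn2c, which encodes p18INK4C (chromosome 4, 109660876 to 109667189, minus strand), had 287 and 289 in controls, 275 and 275 under ET-3, and 275 and 289 under NT. Its change on the log2 scale was estimated at -0.066 under ET-3 (95% interval -0.21 to 0.075) and -0.031 under NT (-0.17 to 0.11), and the sign turned with library-total scaling (0.023 and 0.082). Within each library the level of Cdkn2c relative to Cdkn2d, per length, was 0.849 and 0.799 in controls, 1.22 and 1.27 under ET-3, and 1.401 and 1.55 under NT.

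Among the pocket proteins, Rb1 fell and Rbl1 rose with either ligand, while Rbl2 passed in neither comparison. Rb1 lies on chromosome 14 (73183673 to 73325822, minus strand). Its values were 1258 and 1298 in controls, 297 and 279 under ET-3, and 322 and 348 under NT. The controls were far above all treated libraries. Against controls, the change on the log2 scale came to -2.15 ± 0.059 (SE) under ET-3, which is 4.43-fold lower (adjusted p = 2.75e-09), and -1.93 ± 0.059 under NT, 3.81-fold lower (adjusted p = 4.67e-09). Counted from the lowest fold change of all tested genes, its ranks were 968 and 976. The difference between the ligands did not pass (0.22, adjusted p = 0.0813). Exons of Rb1 overlap those of Lpar6 and Rcbtb2 on the other strand over 896 bp of 6015 bp. The sources used here disagree on whether the library kit kept strand. Lpar6, a lysophosphatidic acid receptor gene that lies inside Rb1, had values of 71 and 45 in controls and 110 to 127 with a ligand, opposite in direction to Rb1.

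Rbl1, which encodes p107, was the only 1 of the 10 genes that rose. It lies on chromosome 2 (157145893 to 157204534, minus strand), and its promoter window is the one above with an E2F word next to the start. Its values were 348 and 315 in controls, 529 and 545 under ET-3, and 628 and 604 under NT. All treated libraries were above both controls, and the NT libraries were above the ET-3 libraries. Its rise on the log2 scale came to 0.70 ± 0.061 (SE) under ET-3 (adjusted p = 4.63e-06) and 0.89 ± 0.061 under NT (adjusted p = 8.59e-07), and 30.6% and 29.7% of all genes passed in the same direction. The difference between the ligands did not pass (0.20, adjusted p = 0.111).

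Rbl2, which encodes p130, the pocket protein most tied to resting cells, gave no call. It lies on chromosome 8 (91070057 to 91123844, plus strand). Its values were 209 in the first control and 249 in the second, 204 and 195 under ET-3, and 214 and 216 under NT. The estimate for ET-3 on the log2 scale was -0.19 (95% interval -0.40 to 0.013, adjusted p = 0.0927) and that for NT was -0.085 (-0.29 to 0.12, adjusted p = 0.446), where the sign turned with library-total scaling and without the second DMSO library. Without the first DMSO library, the ET-3 difference was -0.32 and passed (adjusted p = 0.0164). Its exons overlap those of Aktip on the other strand, and of a small unnamed gene model, over 1585 bp of 7558 bp, and Aktip had values of 247 and 245 in controls and 111 to 135 with a ligand.

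Relative to each other, the pocket proteins changed places. Per kilobase of exon, Rb1 held 70.9% and 71.6% of the family's level in controls, 30.0% and 28.4% under ET-3, and 28.7% and 30.9% under NT. The share of Rbl1 was 19.7% and 17.4% in controls, 53.6% and 55.7% under ET-3, and 56.1% and 53.8% under NT. The ratio of Rb1 to Rbl1 was 3.60 and 4.11 in controls and between 0.51 and 0.574 in the 4 treated libraries. The summed level of the 3 pocket proteins was 64.5 and 65.5 in CPM per kilobase in controls, 38.1 and 37.97 under ET-3, and 43.8 and 44.4 under NT.

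**Figure D3:**
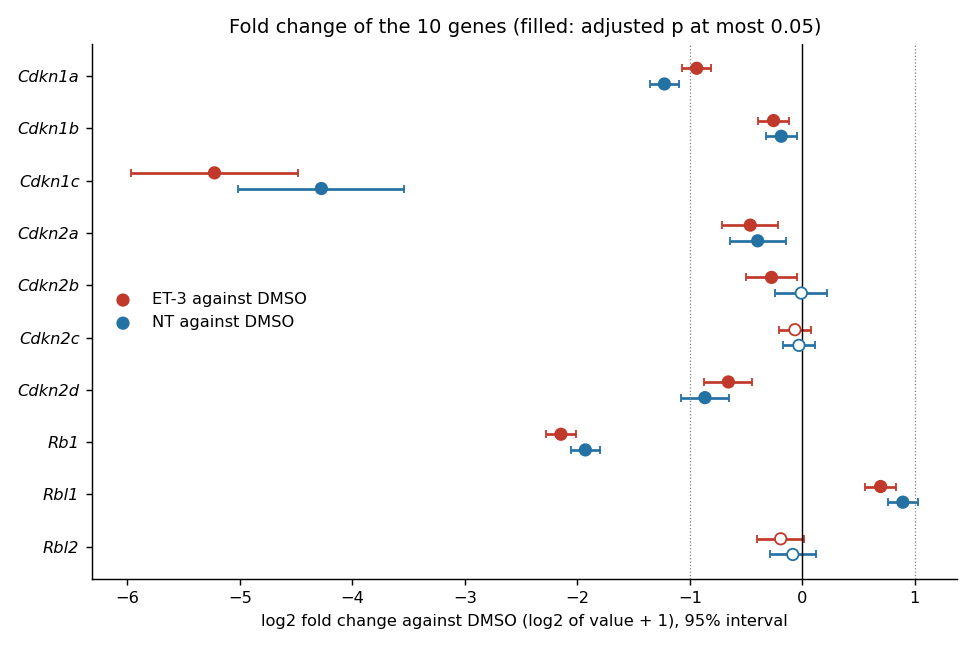
Log2 fold change of each of the 10 genes against DMSO (horizontal axis, log2 of value + 1) for ET-3 and NT, with 95% intervals; filled points passed an adjusted p of 0.05 and dotted lines mark 2-fold changes. Cdkn1c (-5.23 and -4.28) and Rb1 (-2.15 and -1.93) stand farthest to the left and Rbl1 (0.70 and 0.89) alone on the right.

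The order of levels, in CPM per kilobase, was led by Cdkn1a in each group. In controls, Cdkn1a (92.8 ± 6.6, SD, n = 2) was followed by Rb1 (46.3 ± 0.80) and Cdkn2a (36.9 ± 2.9), and Rbl1 (12.1 ± 0.91) and Rbl2 (6.61 ± 0.78) came last. Between neighbours in that order, the ranges over libraries overlapped for Cdkn2c and Cdkn1b only. Under ET-3 and under NT, Cdkn1a (51.4 ± 0.60 and 42.8 ± 1.4) was followed by Cdkn2a, Rb1 had rank 8 (11.1 ± 0.44 and 13.1 ± 0.83), and Cdkn1c was last (0.341 ± 0.16 and 0.752 ± 0.088). Rbl1 had rank 5 (20.8 ± 0.53 and 24.2 ± 0.47), and there its range overlapped that of its upper neighbour, Cdkn2b under ET-3 and Cdkn2c under NT.

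Genes whose pattern over the 6 libraries was most like that of Rbl1 and of Cdkn1c were sought among all tested genes, with each gene centred on its own mean and the root mean square of the differences on the log2(value + 1) scale as the distance. For Rbl1 these were Car5b, a mitochondrial carbonic anhydrase gene (0.02), Oip5 (0.037) and Aspm (0.041), the last a spindle protein gene with values of 468 and 435 in controls, 712 and 777 under ET-3, and 880 and 790 under NT. For Cdkn1c they were the non-coding C430049B03Rik (0.205), the kinase gene Prkg1 (0.23) and Cntn1 (0.241), a cell adhesion gene. C430049B03Rik had values of 268 and 201 in controls, 6 and 5 under ET-3, and 9 and 11 under NT.

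The kinases and cyclins that the brakes act on were mostly higher with a ligand. Of 12 cyclin and CDK genes, 10 rose and 1 fell in each comparison. Their median log2 fold changes were 0.48 and 0.43, beside -0.01 and -0.014 over all genes. Among all tested genes, 30.6% rose and 33.2% fell under ET-3, and 29.7% rose and 32.5% fell under NT. Among the D cyclins, Ccnd1 rose (964 and 926 in controls, 2409 and 2197 under ET-3, 1930 and 1854 under NT), Ccnd2 rose less (0.58 and 0.67 on the log2 scale), and Ccnd3, the D cyclin known for differentiating muscle, was the gene that fell (-0.91 and -0.99). Ccne2 rose by 1.04 and 1.13 and Ccne1 by 0.47 and 0.40. Of the D cyclin kinases, Cdk6 rose in both comparisons (0.33 and 0.44) and Cdk4 under ET-3 (0.31, adjusted p = 0.00044), while under NT its difference of 0.08 passed only with library-total scaling (adjusted p = 0.206, and 0.0049 with that scaling). Per length, Ccnd1 relative to Cdkn1a was 0.508 and 0.438 in controls and between 2.10 and 2.32 in the treated libraries.

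E2F factors and their targets stand downstream of the pocket proteins. Of 18 E2F and MuvB genes, 10 rose in each comparison, and 4 fell under ET-3 and 3 under NT. The shares over all tested genes were 30.6% higher and 33.2% lower under ET-3, and 29.7% higher and 32.5% lower under NT. E2f1, an activating E2F and itself a target of the family, had values of 211 and 210 in controls, 424 and 416 under ET-3, and 414 and 428 under NT. Mybl2, the B-MYB partner of MuvB in cycling cells, rose by 1.41 and 1.395 on the log2 scale and E2f5, a partner of the p130 family, by 1.22 and 1.25. E2f4, the main E2F of resting cells, differed by 0.16 under ET-3 (adjusted p = 0.0176) and by -0.0021 under NT (adjusted p = 0.975), where library-total scaling gave 0.11. All 16 S phase and mitosis genes of the list rose under ET-3 and 15 under NT, with medians of 0.80 and 0.69. Cdc6, which loads replication helicases, rose by 1.45 and 1.39, Mcm5, a helicase subunit, by 1.07 and 0.94, Tyms (thymidylate synthase) by 0.94 and 0.90, and Mki67, the gene of the Ki-67 antigen, by 0.45 and 0.44. With treated pairs counted as 1 sample, fewer genes passed in the cyclin and CDK list, the E2F and MuvB list and the S phase and mitosis list. The medians for ET-3 and NT were then 0.48 and 0.43 for the cyclin and CDK genes. They were 0.22 and 0.28 for the E2F and MuvB genes, and 0.80 and 0.69 for the S phase and mitosis genes. Without either ET-3 library, 2 of the E2F and MuvB genes fell under ET-3.

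**Figure D4:**
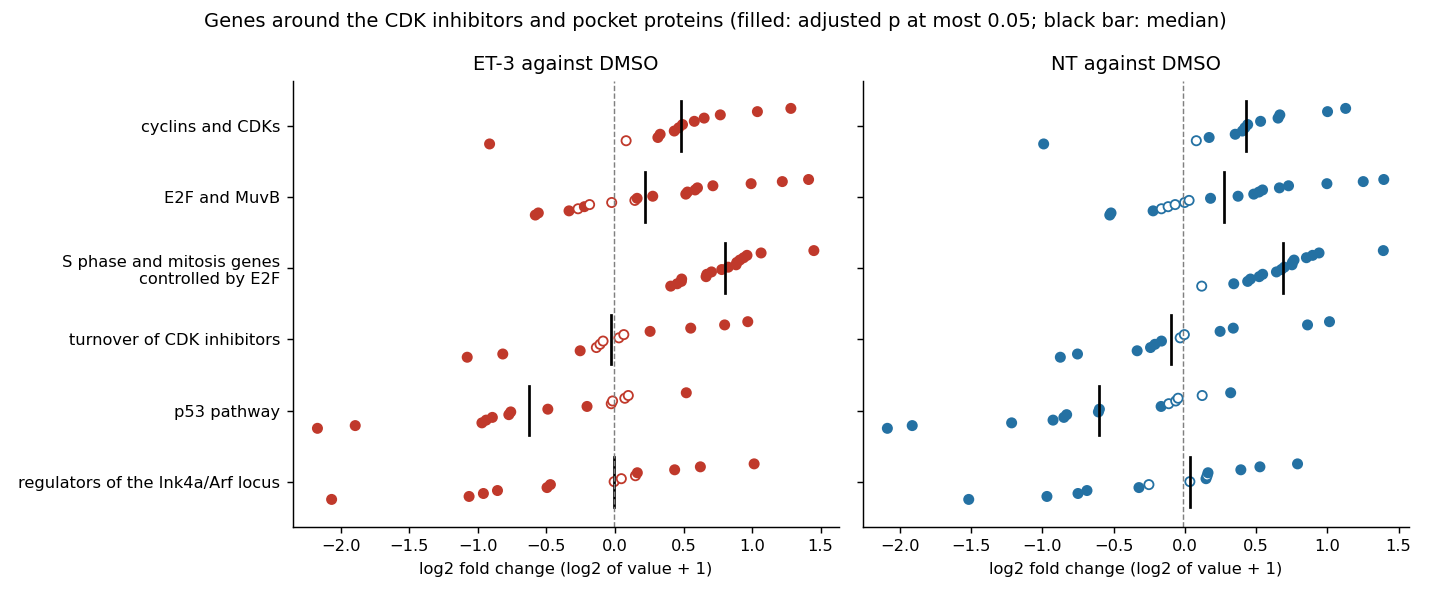
Log2 fold change (horizontal axes, log2 of value + 1) of the genes of 6 lists around the CDK inhibitors and pocket proteins, 1 point per gene, for ET-3 (left) and NT (right); filled points passed an adjusted p of 0.05, black bars are list medians and the dashed line is the median of all tested genes. The S phase and mitosis genes lie to the right of the dashed line (medians 0.80 and 0.69) and most p53 pathway genes to the left (medians -0.63 and -0.60).

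Genes tied to the control of the inhibitors moved in both directions. The p53 pathway is known to induce Cdkn1a, and its list holds targets of p53 as well as Trp53 and Mdm2. Of these 14 genes, 9 fell and 1 rose in each comparison, with medians of -0.63 and -0.60. Over all tested genes, 33.2% fell under ET-3 and 32.5% under NT. Those that fell most were Eda2r, a receptor gene (-2.17 and -2.09), Btg2, an antiproliferative gene (-1.89 and -1.91), and Gadd45a, a stress response gene (-0.97 and -1.22). The gene that rose was Trp53 itself (0.52 and 0.32). Mdm2, which marks p53 for degradation, differed by -0.017 under ET-3 (adjusted p = 0.77, with the sign turned by library-total and upper-quartile scaling) and by -0.17 under NT (adjusted p = 0.0116). With treated pairs counted as 1 sample, 5 of the 14 fell in each comparison, and the Trp53 call was lost under NT (adjusted p = 0.0557). With library-total scaling 8 fell in each comparison, and 3 rose under ET-3 and 2 under NT.

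The ubiquitin ligase genes listed for the turnover of CDK inhibitors, which include shared subunits and Fbxw7, showed no common direction. Of 12 such genes, 3 fell and 4 rose under ET-3, and 6 fell and 4 rose under NT, with medians of -0.029 and -0.099 that turned to 0.06 and 0.014 with library-total scaling. That scaling left 3 falls and 4 rises under NT. With treated pairs counted as 1 sample, 2 fell and 2 rose under ET-3, and 3 fell and 1 rose under NT. Skp2, whose product marks p27 for degradation, rose (335 and 283 in controls, 523 and 551 under ET-3, 588 and 533 under NT), as did Dtl, the adaptor that marks p21 in S phase (0.97 and 1.01 on the log2 scale). Fbxw7, the adaptor for cyclin E, fell (-1.08 and -0.87). Of 13 regulators of the Ink4a/Arf locus, 6 fell and 4 rose under ET-3, and 5 fell and 5 rose under NT. Both directions were common over all tested genes too, with 33.2% lower and 30.6% higher under ET-3, and 32.5% and 29.7% under NT. Ezh2, the methyltransferase that silences the locus, rose by 0.62 and 0.53 and Hmga2, known to keep the locus low in young stem cells, by 1.02 and 0.79, while Kdm6b, a demethylase that opens it, fell (-1.06 and -0.97), and so did Tbx2, a repressor of it (-2.07 and -1.52). Bmi1, a Polycomb repressor of the locus, differed by 0.15 under ET-3 (adjusted p = 0.0609) and 0.16 under NT (adjusted p = 0.0462). With treated pairs counted as 1 sample, 1 of these regulators fell and 3 rose in each comparison. Under NT the rises were 3 without any 1 DMSO or NT library, without the filter on low values and with a replicate block, and the falls were 3 without the second NT library.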

How the data were processed

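The table holds RNA-seq of mouse MuSCs after 5 days with DMSO, ET-3 or NT, and the labels put 2 libraries in each group. Per the submitters' processing notes, Trimmomatic 0.38, STAR 2.7.7a, featureCounts 1.6.5 and DESeq2 1.30.0 were used with mm10. The study's methods name other tools for the same steps, and the labels and the methods name different library kits. The authors counted only reads that fell on 1 gene and aligned to 1 place. The deposited values are a signal of read counts, multiplied by 1 factor per library (0.781 to 1.19, recovered from the values) and rounded, so no count model was used. The counting error of a member's value follows from these reads.

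Genes whose mean value reached 5 were tested on log2(value + 1) with limma 3.58.1 (R 4.3.3) with a mean-variance trend, all 6 libraries in 1 fit of 3 groups and Benjamini-Hochberg adjustment over 13921 genes in each of 3 comparisons. The thresholds were an adjusted p of 0.05, alone or with a 2-fold change. Levels between genes are CPM (value over the library total) per kilobase of exon (GENCODE M21), without a test. Ratios of Cdkn1c carry exact 95% counting intervals. All 10 members are named; of 12 other lists, the 3 genes with the largest mean change among those passing in both comparisons and genes with a central place in the pathway are named. The members and lists were chosen with earlier results of these data known. Alternatives covered the filter, the scaling, the pseudocount, voom weights, a replicate block, fits of 2 groups alone, treated pairs averaged and each library left out. The fit was tested on simulated data. Tables and plots were made in Python 3.11.15 (matplotlib 3.10.9, pandas 2.3.3, numpy 2.4.6).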

Additional observations from a re-analysis of the deposited data

Results flagged for a closer look

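The difference of Cdkn1a between the ligands was the only 1 among the 10 genes that passed in the direct test. Its log2 fold change in NT against ET-3 was -0.29 (adjusted p = 0.042, limma with Benjamini-Hochberg adjustment), with values of 783 and 791 with ET-3 and of 664 and 626 with NT, so that both NT libraries were lower than both ET-3 libraries. It passed in 5 of 16 alternatives, over which the adjusted p ranged from 0.00614 to 0.712.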

How the results depend on the processing

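Over the 16 alternatives, Cdkn1a, Cdkn1c, Cdkn2d, Rb1 and Rbl1 kept direction and call against DMSO under both ligands. The ET-3 count of members that passed moved from 8 to 5 with treated pairs averaged, which leaves 4 samples, with 1 value and no spread in each treated group. In NT against ET-3 the count of 1 became 2 with a mean of at least 20 and with voom weights, and 0 with no filter, pseudocount 0.5, the 2 groups alone, treated pairs averaged and every library left out. The number of all genes past 2-fold there moved from 11 to 7 with pseudocount 5 and to 0 with no filter, the 2 groups alone, treated pairs averaged and every library left out (lowest and highest 0). In the fit as reported (limma), 5 members had an unadjusted p under 0.05 there. Where these counts moved, the cause was not tested.

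Signs turned for small differences only. With library-total scaling, Cdkn2c was 0.0225 under ET-3 and 0.082 under NT, Cdkn2b 0.1029 and Rbl2 0.0275 under NT, Mdm2 0.0718 under ET-3 and E2f4 0.1108 under NT. With upper-quartile scaling, Cdkn2b was 0.0215, Cdkn2c 0.0004 and E2f4 0.029 under NT, and Mdm2 0.032 under ET-3. With each library left out, values against DMSO ranged from -0.0527 to 0.0181 for Mdm2 under ET-3, and under NT from -0.0282 to 0.0093 for Cdkn2b, -0.0664 to 0.005 for Cdkn2c, -0.2109 to 0.0406 for Rbl2 and -0.0341 to 0.0299 for E2f4. Cdkn2a in NT against ET-3 ranged from -0.0768 to 0.2089. With an upper-quartile scaled total the summed level of the 10 members was 317.479 in controls and 201.034 under NT.

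With the replicate number as a block, the count of members in NT against ET-3 and the number of all genes past 2-fold there were both 0, and Cdkn1a had an adjusted p of 0.0734. Same-numbered libraries did not deviate together (correlations of -0.008, -0.07 and -0.022). The treated pairs differed by about the counting noise, so these correlations cannot show whether the numbers pair the libraries. Depth limits Cdkn1c most, with 5 and 16 reads in the treated pairs.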

Other observations

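Markers of MuSCs did not share 1 direction. Of 11 tested marker genes, Pax7 among them, 5 fell and 4 rose under either ligand (limma, adjusted p of at most 0.05), with medians of -0.085 for ET-3 and -0.26 for NT. Over all tested genes, 33.2% fell and 30.6% rose under ET-3, and 32.5% fell and 29.7% rose under NT. With treated pairs counted as 1 sample, 3 fell and 0 rose in each comparison, and Pax7 (adjusted p = 0.0848 and 0.102) and Cd34 (0.053 and 0.0559) lost their calls. Under ET-3, 3 fell without the second DMSO library or the second ET-3 library. Cd34, a surface marker of resting MuSCs, had values of 5 and 1 in controls, 330 and 264 under ET-3, and 286 and 318 under NT. Heyl, a Notch target, went the other way, with 382 and 566 in controls and 4 to 9 in the treated libraries, and Cdh15, the M-cadherin gene of MuSCs and myoblasts, changed by -1.80 and -1.82 on the log2 scale.

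Among the few tested markers of other cell types, the endothelial receptor genes Tek (4.72 and 4.50 on the log2 scale) and Kdr (1.22 and 1.22) rose, as did Ly6a (0.83 and 0.98), and Col15a1 (-5.36 and -5.86), Abcc9 (-8.06 and -8.72) and Rgs5 (-5.11 and -4.77) fell, for ET-3 and NT in that order. Most of these genes had values near 0 in 1 of the groups, so their fold changes depend on the pseudocount. The calls of Kdr and Ly6a were lost with treated pairs counted as 1 sample (adjusted p = 0.317 and 0.197 for ET-3, and 0.318 and 0.159 for NT) and without the second DMSO library (0.0872 and 0.158, and 0.0925 and 0.0968). Without the first DMSO library both passed, and with other libraries left out Kdr did not pass in either comparison. Ly6a did not pass for ET-3 without either ET-3 library (0.0654 and 0.125), nor for NT without the second NT library (0.0996). Neither of the 2 tested leukocyte markers passed, at an adjusted p of 0.104 and 0.119 for ET-3 and 0.186 and 0.12 for NT.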
